A study of Mus musculus with 15 samples.

Results

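The mRNA of the serotonin, dopamine, adrenergic, muscarinic acetylcholine and histamine receptors was followed in the mouse hippocampus after contextual fear conditioning and after retrieval of the memory. The members were all genes of the deposited count table whose symbol in the mm9 gene annotation begins with Htr, Drd, Adra, Adrb, Chrm or Hrh followed by a digit. This gave 37 of the 37310 genes in the table, with 14 serotonin, 5 dopamine, 9 adrenergic, 5 muscarinic and 4 histamine receptors. Membership followed from the symbol alone, but the set was chosen with earlier results of these data known.

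All animals were wild-type male C57BL/6J mice, 2 months old, housed singly and handled daily for 3 days. Control animals (CC) were handled, not trained, and were dissected at the time of day of the other groups. FC animals were dissected 30 minutes after contextual fear conditioning, in which a 2-second foot shock of 1.5 mA ended 2.5 minutes after placement in the chamber. RT animals received the same training, were returned to the chamber for a 5-minute retrieval test 24 hours later and were dissected 30 minutes after that test. PolyA-selected RNA of each group was sequenced in 5 libraries, numbered 3, 5, 6, 7 and 8 (15 libraries in all). Per the study's methods each came from the 2 pooled hippocampi of 1 mouse. The tissue was bulk hippocampus, so that fewer cells of a type and less RNA per cell cannot be told apart.

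These receptors carry the slow, modulatory signals of neurons that lie mostly outside the hippocampus: the serotonin neurons of the raphe, the noradrenaline neurons of the locus coeruleus, midbrain dopamine neurons, septal cholinergic neurons and hypothalamic histamine neurons. All but the ion channels Htr3a and Htr3b are G protein-coupled. Receptors coupled to Gs (such as Drd1a, Drd5, Htr4, Htr6, Htr7, the beta-adrenergic receptors and Hrh2) raise cAMP, those coupled to Gi or Go (such as Drd2, Htr1a, Chrm2, Chrm4, the alpha2-adrenergic receptors and Hrh3) lower it, and those coupled to Gq (such as Chrm1, Chrm3, Chrm5, Htr2a, Htr2c, the alpha1-adrenergic receptors and Hrh1) activate phospholipase C. In the hippocampus they are known for setting excitability and plasticity during arousal and learning.

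The libraries held between 35731428 and 62555543 counts, and the receptors together took 0.0584% to 0.0735% of them. Library 3 of FC and library 3 of RT stood apart from the others of their groups, which is described below, and results that rest on them are given with and without both. Markers of the dentate gyrus (10 of 10 genes) and of CA1 and CA3 (11 of 11) were detected, and none of either list passed the test in any comparison. Of 14 choroid plexus markers 13 were called higher in FC than in CC with the study's model, beside 1.32% of all tested genes. With upper-quartile normalization alone 8 were. The model called 1 higher in RT than in CC and 6 higher in FC than in RT. Their summed level ranged from 66.2 to 78.7 FPKM across the CC libraries, from 104 to 962 across FC and from 75.1 to 296 across RT. FPKM here is the count per kilobase of exon, scaled to a library size that was adjusted by the upper quartile. No marker of interneurons, astrocytes, endothelium and pericytes, microglia, or thalamus and habenula passed.

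The level differed widely between receptors and families, from the 93.5th percentile of the tested genes for Chrm1 to the 45.7th for Drd5, the highest dopamine receptor. Of the 37 genes, 32 had more than 10 reads in more than 5 libraries and were tested. The other 5 were Htr2b (1 to 8 reads per library), Htr3b (0 to 5), Drd3 (0 to 7), Drd4 (1 to 23) and Hrh4, which had 0 reads in every library. In CC the summed level was highest for the muscarinic receptors, at 75.6 ± 5.0 FPKM (mean ± SD, n = 5), followed by the adrenergic receptors at 51.6 ± 4.5, the serotonin receptors at 35.1 ± 1.3, the histamine receptors at 14.2 ± 2.2 and the dopamine receptors at 6.80 ± 0.59.

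**Figure D1:**
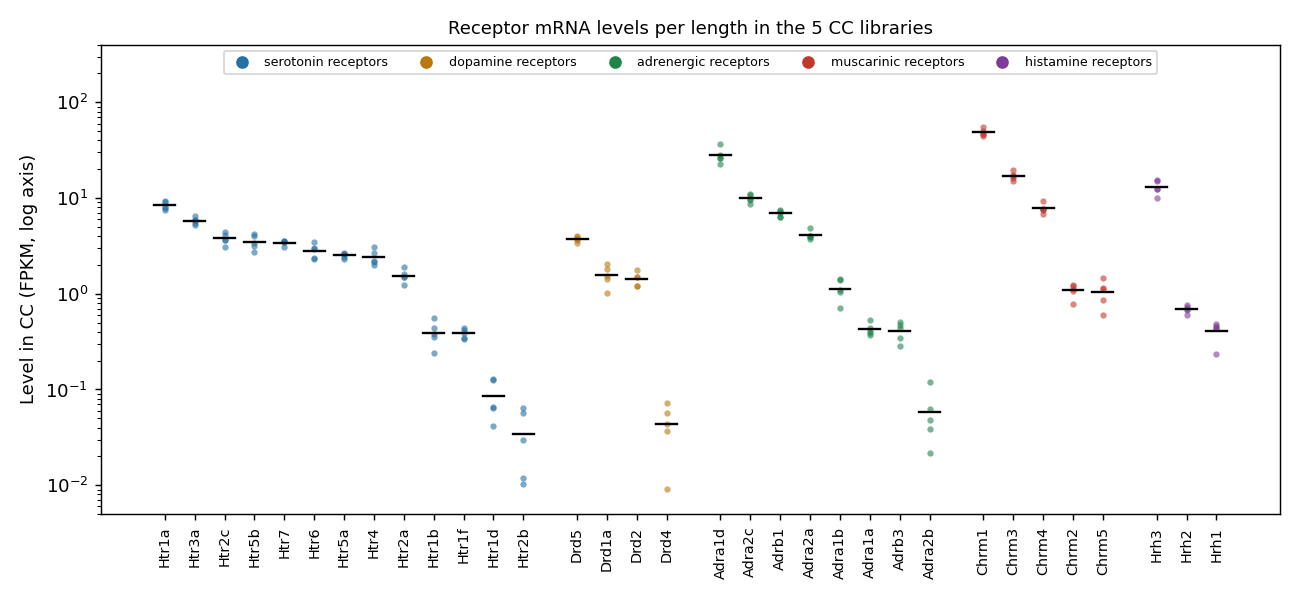
Level of each receptor mRNA per length (FPKM, log axis) in the 5 CC libraries. Points are libraries and bars are means. Chrm1 stood highest at 48.6 FPKM, and the 3 genes with no reads in some CC library (Htr3b, Drd3, Hrh4) are not in the plot.

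Chrm1, the M1 receptor of pyramidal neurons, was the highest receptor of all and made up 64.3% of the muscarinic level in CC. Chrm1 (mm9 chr19:8738495-8758077) was at 46.8, 44.6, 50.2, 47.0 and 54.6 FPKM in CC3, CC5, CC6, CC7 and CC8. It was 43.5, 47.1, 48.0, 50.9 and 46.0 FPKM in FC3, FC5, FC6, FC7 and FC8, and 47.4, 49.3, 44.8, 48.1 and 47.5 FPKM in RT3, RT5, RT6, RT7 and RT8. The 3 groups overlapped, and no library was far from the others. Chrm3 (17.0 ± 1.7 FPKM in CC) and Chrm4 (7.82 ± 0.96) followed without overlap of their CC libraries. Chrm2 (1.08 ± 0.18) and Chrm5 (1.04 ± 0.32) were lowest and overlapped each other.

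Among the adrenergic receptors, Adra1d, an alpha1 receptor, made up 54.2% of the level. Adra1d (mm9 chr2:131371586-131388021) was at 28.2, 22.4, 26.5, 26.5 and 36.5 FPKM in CC3 to CC8, at 18.4, 28.6, 29.3, 30.3 and 28.1 in FC3 to FC8, and at 27.5, 30.6, 26.0, 29.2 and 28.8 in RT3 to RT8. CC8 was the highest and FC3 the lowest library. Adra2c (9.93 ± 0.94 FPKM in CC), Adrb1 (6.90 ± 0.52) and Adra2a (4.14 ± 0.45) came next, each without overlap of its CC libraries with those of the next. Adra1b was at 1.13 ± 0.29. Adra1a (0.429 ± 0.060) and Adrb3 (0.407 ± 0.091) overlapped each other, and Adra2b was at 0.0580 ± 0.037.

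The serotonin receptors were spread more evenly. Htr1a, the inhibitory receptor of pyramidal neurons, was highest and made up 23.9% of the family. Htr1a (mm9 chr13:106233773-106238213) was at 9.41, 7.79, 7.48, 9.14 and 8.03 FPKM in CC3 to CC8, 3.82, 8.39, 8.70, 8.37 and 8.16 in FC3 to FC8, and 6.07, 7.66, 9.32, 8.14 and 8.60 in RT3 to RT8. FC3 and RT3 were the lowest library of their groups. Htr3a, a subunit of the serotonin-gated channel that is known from interneurons, was at 5.79 ± 0.48 FPKM in CC. Then came Htr2c (3.79 ± 0.51), Htr5b (3.49 ± 0.59), Htr7 (3.41 ± 0.19), Htr6 (2.82 ± 0.49), Htr5a (2.51 ± 0.15) and Htr4 (2.42 ± 0.46), of which each overlapped with its neighbours in this order. Htr2a (1.55 ± 0.24), Htr1b (0.392 ± 0.12), Htr1f (0.386 ± 0.042) and Htr1d (0.0849 ± 0.040) were lower.

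In the smaller families the pattern was steeper for histamine than for dopamine. Hrh3 (mm9 chr2:179834170-179839193), the inhibitory autoreceptor and heteroreceptor, made up 92.2% of the histamine receptor level, with 15.3, 12.5, 15.0, 12.5 and 10.0 FPKM in the CC libraries, 22.3, 13.2, 11.2, 14.1 and 14.2 in FC3 to FC8, and 17.0, 14.9, 14.0, 15.1 and 13.8 in RT3 to RT8. FC3 was the highest of the 15 libraries and CC8 the lowest. Hrh2 (0.692 ± 0.063 FPKM in CC) and Hrh1 (0.409 ± 0.10) were far lower. Drd5 (mm9 chr5:38710748-38713549), a D1-class receptor, made up 54.7% of the dopamine receptor level, with 3.61, 3.35, 3.97, 3.72 and 3.94 FPKM in CC3 to CC8, 5.05, 3.73, 3.70, 3.42 and 3.497 in FC3 to FC8, and 4.68, 3.74, 4.02, 3.95 and 3.48 in RT3 to RT8. Library 3 was the highest of FC and of RT. Drd1a (1.57 ± 0.39 FPKM in CC) and Drd2 (1.43 ± 0.24) overlapped each other.

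The count of some receptors may hold reads of another gene, because the kit does not mark the strand. Exons of 8 members overlap an exon on the opposite strand in the annotation, by 1386 bases for Drd5, 852 for Htr1b, 349 for Hrh3, 329 for Chrm1, 252 for Htr2b, 147 for Adra1d, 142 for Chrm2 and 25 for Chrm4.

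The comparison of FC with CC asked which receptor mRNAs differed 30 minutes after learning. At a false discovery rate (FDR, the Benjamini-Hochberg adjusted p over all 18008 tested genes) of at most 0.01, 1 of the 32 tested receptors passed with the study's model, edgeR with 5 RUVs factors of unwanted variation. It was Chrm3, the Gq-coupled M3 receptor, which was lower in FC. That is 3.125% of the tested members beside a background of 2.24% of all tested genes in either direction, and 0.922% called lower. Across the receptors, 12 log2 fold changes were positive and 20 negative, and their median was -0.036 beside -0.014 for all tested genes. The count at an unadjusted p under 0.05 was 6 of 32 (18.75%) beside 16.5% of all tested genes. With upper-quartile normalization (UQ) alone, edgeR called 0 receptors, beside a background of 0.189%, and 2 of 32 (6.25%) had an unadjusted p under 0.05, beside 3.07% of all tested genes. DESeq2 with the same 5 factors called Chrm3 alone, beside 155 of all 18008 tested genes.

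**Figure D2:**
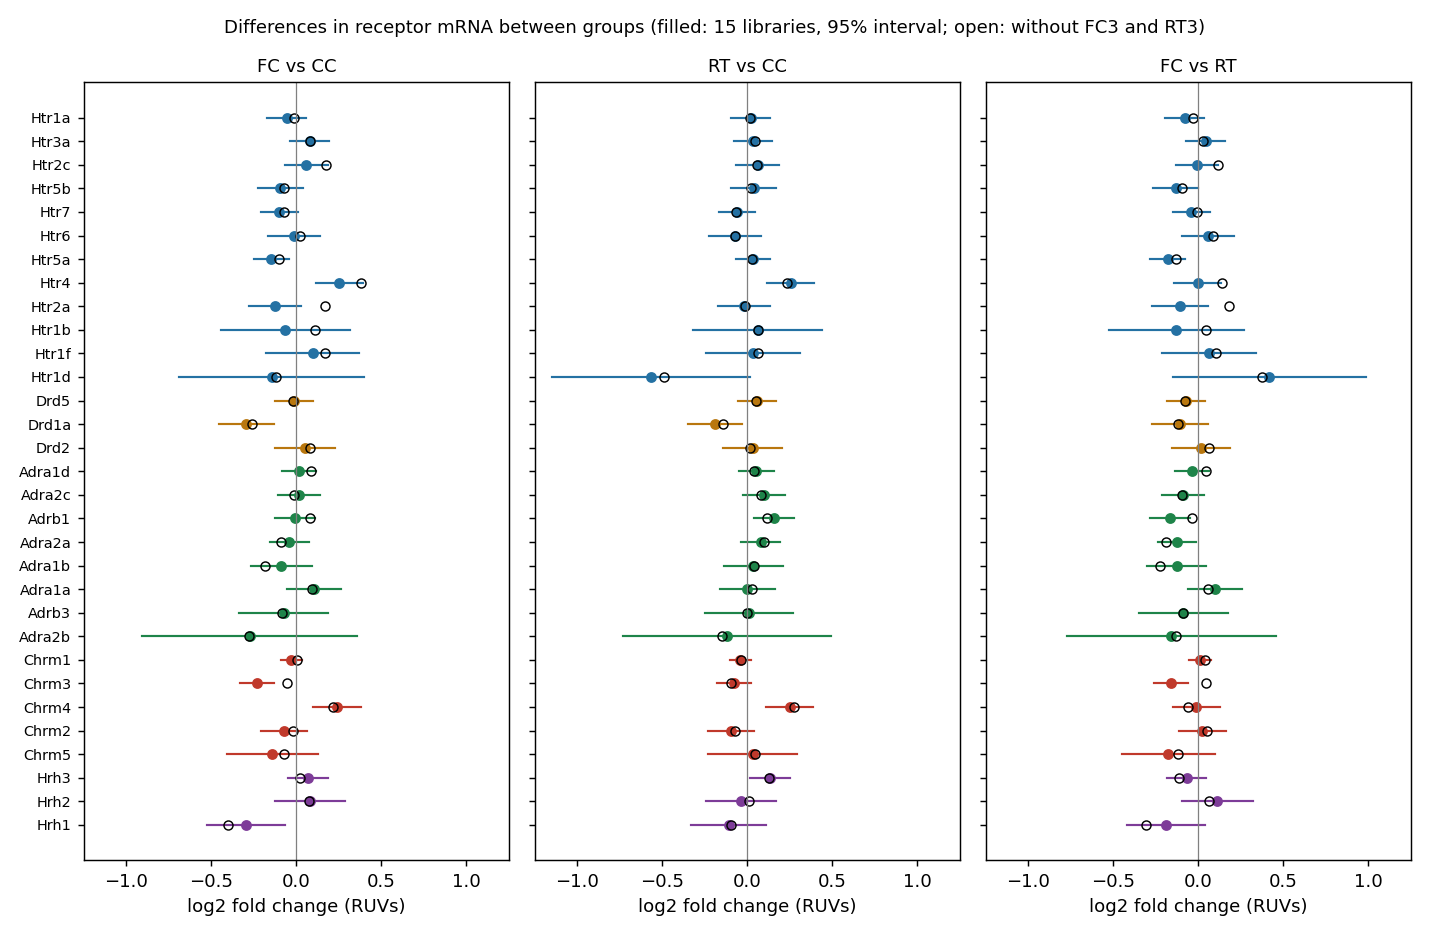
log2 fold change of the tested receptors in the 3 comparisons, with the 5 RUVs factors as covariates. Filled points are the fit of all 15 libraries with its 95% interval, open points the fit without FC3 and RT3, and colours mark the families from serotonin (top) to histamine (bottom). For Chrm3 the FC vs CC value moves from -0.23 to -0.053 without these 2 libraries.

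Chrm3 (ENSMUSG00000046159, mm9 chr13:9876381-9878329, a model of 1 exon with 1767 coding and 182 noncoding bases) had UQ-normalized counts of 1690, 1491, 1626, 1714 and 1968 in CC3, CC5, CC6, CC7 and CC8. The counts were 252, 1517, 1621, 1754 and 1637 in FC3, FC5, FC6, FC7 and FC8. They were 968, 1590, 1641, 1500 and 1639 in RT3, RT5, RT6, RT7 and RT8. FC3 and RT3 were far below the other 13 libraries, and without them the 3 groups still overlapped, between 1491 and 1968. In FC against CC its log2 fold change was -0.23 (SE 0.05, FDR = 0.000528). Without FC3 it was -0.11 (FDR = 0.10), and without FC3 and RT3 it was -0.053 (SE 0.04, FDR = 0.532), so that Chrm3 no longer passed. The call was also lost without CC6 (FDR = 0.0205), CC8 (FDR = 0.0701) or FC8 (FDR = 0.0173), and with UQ alone (log2 fold change -0.32, FDR = 0.966). It was lost as well with 3 factors (FDR = 0.264), 1 factor (FDR = 0.438), the quasi-likelihood test (FDR = 0.0150), every gene with a read (FDR = 0.129), and without FC5 and FC8 (FDR = 0.0773).

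**Figure D3:**
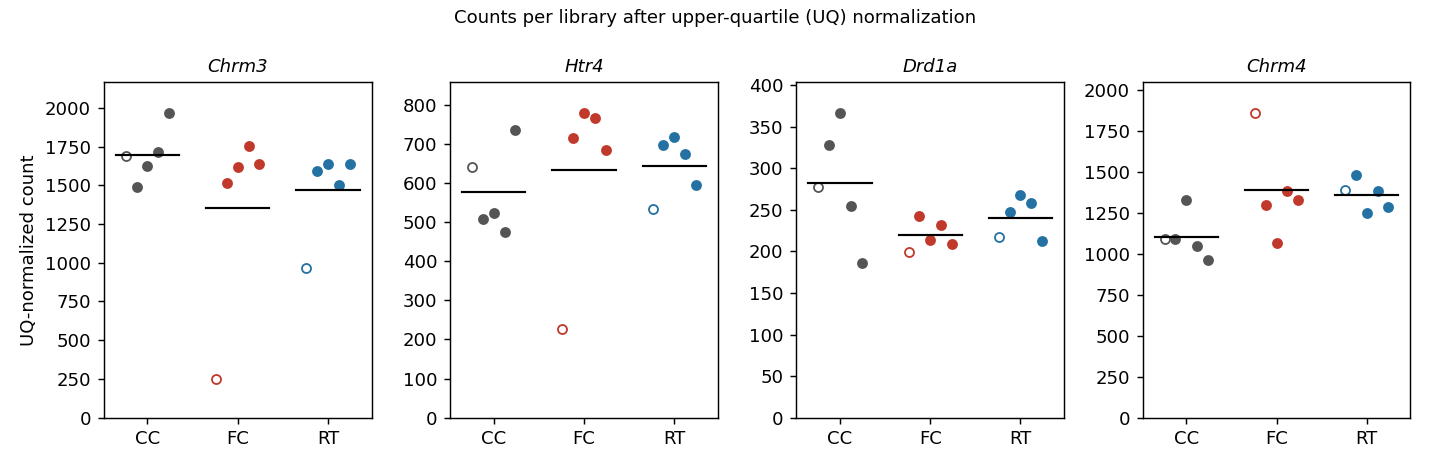
UQ-normalized counts (linear axis from 0) of Chrm3, Htr4, Drd1a and Chrm4 in each library of CC, FC and RT. Each point is a library, open points are library 3 of each group and bars are group means. FC3 lies at 252 for Chrm3 and at 227 for Htr4, below all other libraries.

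Htr4, the Gs-coupled serotonin receptor (ENSMUSG00000026322, mm9 chr18:62483858-62627456), had counts of 640, 507, 524, 475 and 735 in CC3 to CC8. The counts were 227, 715, 779, 765 and 683 in FC3 to FC8, and 534, 697, 718, 674 and 595 in RT3 to RT8. Apart from FC3, the FC libraries were above 4 of the 5 CC libraries, and CC8 lay among them. With all 15 libraries the log2 fold change was 0.25 (SE 0.07), and Htr4 missed the threshold (FDR = 0.0139). With UQ alone it was 0.14 (FDR = 0.966). It passed without CC3 (0.33, FDR = 1.68e-05), CC8 (0.36, FDR = 3.71e-05), FC3 (0.34, FDR = 0.00147), RT3 (0.27, FDR = 0.00686), RT5 (0.28, FDR = 0.00384), RT6 (0.28, FDR = 0.00226) or RT8 (0.27, FDR = 0.00543). In the other 8 of 15 runs with a single library left out Htr4 did not pass, and its FDR reached 0.0696. The lowest value was 0.22, without CC7. Without FC3 and RT3 together Htr4 was higher in FC, by 0.38 (SE 0.08, FDR = 0.000423).

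Chrm4, the Gi-coupled M4 receptor (ENSMUSG00000040495, mm9 chr2:91762346-91769986), had counts of 1093, 1093, 1331, 1052 and 965 in CC3 to CC8. The counts were 1864, 1299, 1071, 1384 and 1331 in FC3 to FC8, and 1390, 1484, 1251, 1384 and 1287 in RT3 to RT8. CC6 reached the level of FC and RT, and FC6 that of CC. Chrm4 in FC against CC was at a log2 fold change of 0.24 (SE 0.07, FDR = 0.0271) with all libraries and 0.22 (SE 0.06, FDR = 0.00909) without FC3 and RT3. It also passed without CC6 (0.30, FDR = 0.00260), FC6 (0.32, FDR = 0.000435) or RT3 (0.22, FDR = 0.00193). In the other 12 of 15 runs with a single library left out Chrm4 did not pass, and its FDR reached 0.225. The lowest value was 0.17, without CC8. Without FC3 and RT3, 2 of the 32 receptors were called, Htr4 and Chrm4, both higher, beside a background of 2.77% of 17856 genes in either direction and 1.97% called higher. With UQ alone and without these 2 libraries 0 receptors passed, beside 0.616%.

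Drd1a, the Gs-coupled D1 receptor (ENSMUSG00000021478, mm9 chr13:54146555-54151027), had counts of 278, 328, 367, 254 and 186 in CC3 to CC8. The counts were 199.6, 243, 213, 232 and 209 in FC3 to FC8, and 217, 247, 268, 258 and 213 in RT3 to RT8. The CC libraries spanned the whole range, with CC8 below every FC library. For Drd1a the log2 fold change of FC against CC was -0.30 (SE 0.08, FDR = 0.0140) with all libraries and -0.26 (SE 0.07, FDR = 0.0129) without FC3 and RT3. It was past the threshold without CC3 (FDR = 0.00699), CC7 (FDR = 0.00300), CC8 (FDR = 0.000159), FC3 (FDR = 0.00588), RT3 (FDR = 0.00110), RT6 (FDR = 0.00275) or RT8 (FDR = 0.00928), and was -0.19 (FDR = 0.178) without CC6. The striatum, a neighbouring region, is rich in Drd1a, and of its 11 tested markers 1 passed: Gpr6, an orphan receptor, was lower in FC by 0.72 on the log2 scale (FDR = 0.000278). Over all tested genes 0.922% were called lower, and with UQ alone 0 of the 11 markers passed. The mean log2 level of the striatal markers, relative to its mean over libraries, spanned -0.20 to 0.19 in CC and -0.17 to 0.15 in FC. CC6 was at its top and CC8 at its bottom, as for Drd1a. FC3 and RT3 had the highest marker level of their groups, 0.15 and 0.16, but Drd1a counts of only 199.6 and 217. In FC3 this was the lowest Drd1a count of the group. A part of striatal tissue in the Drd1a value was not tested.

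Over the same replicate numbers, the FC and RT libraries deviated together, whereas CC did not deviate with them. With the library number added as a replicate block to the 5 factors, 3 receptors passed in FC against CC: Chrm3, Htr4 (0.30, FDR = 1.78e-05) and Drd1a (-0.35, FDR = 0.000254), beside a background of 2.53%. Htr4 was then also the 1 receptor that passed in RT against CC (0.29, FDR = 4.72e-05), beside 1.18%. The block leaves fewer than the 7 residual degrees of freedom (libraries beyond the fitted terms) of the main fit. The likelihood ratio test takes no account of so small a number, so these FDR values may be too low. The quasi-likelihood test was not run with the block. Without it, that test called 0 receptors and 98 of 18008 genes in FC against CC, beside 403 in the main fit. With the block on UQ alone 0 receptors passed in either comparison, and Htr4 in FC against CC was at 0.062 (FDR = 0.952).

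The remaining 28 tested receptors did not pass in FC against CC in the fit of all libraries, and the smallest p among them were those of Htr5a, a Gi-coupled serotonin receptor, and Hrh1, the Gq-coupled histamine receptor. Hrh1 had counts of 99.9, 104, 99.0, 109 and 52.9 in CC3 to CC8 and of 94.2, 84.4, 55.7, 65.9 and 75.2 in FC3 to FC8. All FC libraries were below 4 of the 5 CC libraries, and CC8 was below all FC libraries. Its log2 fold change was -0.30 (SE 0.12, FDR = 0.136), and it passed without CC8 (-0.51, FDR = 0.000827) and without FC5 and FC8 (-0.58, FDR = 0.00976). Htr5a was at -0.15 (SE 0.05, FDR = 0.0801). Hrh1 was singled out after its values were seen.

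Htr2c, a Gq-coupled serotonin receptor that choroid plexus epithelium is known to express strongly, was also singled out after its values were seen. Its counts were 1957, 2120, 1753, 1739 and 1475 in CC3 to CC8, 375, 2370, 1810, 1869 and 2319 in FC3 to FC8, and 1073, 1918, 1953, 1807 and 1809 in RT3 to RT8. FC5 and FC8 were the highest of all libraries. They also had the highest mean log2 level of the choroid plexus markers relative to the mean over libraries, 2.47 and 1.42, beside -0.85 to -0.64 in CC. RT8 came next in marker level, at 0.95. Its Htr2c count of 1809 lay between those of RT7 (marker level -0.32) and RT6 (-0.65). CC5, with the next highest Htr2c count after FC5 and FC8, had a marker level of -0.68. A part of choroid plexus tissue in the Htr2c value was not tested. The log2 fold change of FC against CC was 0.057 (SE 0.06, FDR = 0.748) with all libraries and 0.17 (SE 0.05, FDR = 0.0106) without FC3 and RT3. Without FC5 and FC8 it was -0.14 (FDR = 0.244).

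The intervals of the differences were narrow for most receptors once the 5 factors were in the model. The 95% interval of FC against CC lay within a 1.5-fold change in either direction for 30 of the 32 receptors. The exceptions were Adra2b and Htr1d, which had 3 to 19 and 3 to 26 reads per library. With UQ alone, the interval lay within that range for 18 of 32. A narrow interval did not cover a change of libraries: that of Chrm3 with 5 factors, -0.33 to -0.13, left out its value without FC3 and RT3, -0.053. Htr1a (-0.057, SE 0.06) and Htr1f (0.096, SE 0.14) were among the study's negative control genes, from which the factors were estimated, so that their small differences are not independent of the method.

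The comparison of RT with CC asked which receptor mRNAs differed 30 minutes after retrieval. It shares the CC libraries with the comparison above. With 5 RUVs factors edgeR called 0 of 32 receptors, beside a background of 1.01%, and DESeq2 and the quasi-likelihood test called 0 as well. At an unadjusted p under 0.05 there were 5 of 32 (15.6%) beside 11.05% of all tested genes, and with UQ alone 0 beside 1.39%, where 0 passed beside a background of 0.106%. In this comparison 21 log2 fold changes were positive and 11 negative.

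Htr4 and Chrm4, the receptors with the smallest p, stayed short of the threshold in the study's model with all libraries. Htr4 was at 0.26 (SE 0.07, FDR = 0.0228) and Chrm4 at 0.25 (SE 0.07, FDR = 0.0335). Chrm4 passed without CC6 (0.31, FDR = 0.00172), FC3 (0.25, FDR = 6.41e-05), FC5 (0.25, FDR = 0.000350), FC6 (0.27, FDR = 0.00310) or RT3 (0.27, FDR = 6.33e-05). In the other 10 of 15 runs with a single library left out it did not pass, and its FDR reached 0.207. The lowest value was 0.18, without RT5. Without FC3 and RT3 together Chrm4 was the single receptor called, higher in RT by 0.27 (SE 0.06, FDR = 0.000461), beside a background of 1.11% in either direction and 0.935% called higher. With UQ alone it was 0 receptors beside 0.370%. Htr4 passed without CC3 (0.31, FDR = 0.000106), CC8 (0.36, FDR = 8.03e-05) or RT8 (0.33, FDR = 0.000854), and was at 0.24 (FDR = 0.125) without FC3 and RT3. In the other 12 of 15 runs with a single library left out Htr4 did not pass, with an FDR up to 0.113. With all libraries it passed where all tested genes served as negative controls (0.29, FDR = 0.00405), and was 0.16 (FDR = 0.9998) with UQ alone.

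Adrb1, a Gs-coupled beta-adrenergic receptor (mm9 chr19:56796862-56799352), had counts of 927, 811, 958, 882 and 815 in CC3 to CC8. The counts were 501, 877, 853, 1038 and 933 in FC3 to FC8, and 1014, 946, 945, 987.5 and 975.4 in RT3 to RT8. The RT libraries were the most alike, and 1 CC library, CC6, lay among them. Its log2 fold change of RT against CC was 0.16 (SE 0.06, FDR = 0.199). Drd1a was at -0.19 (SE 0.08, FDR = 0.309), Hrh3 at 0.13 (SE 0.06, FDR = 0.338) and Chrm3 at -0.076 (SE 0.05, FDR = 0.639).

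FC and RT, compared directly, asked whether learning and retrieval differed. With 5 RUVs factors edgeR called 0 of 32 receptors, beside a background of 0.122%, and 5 had an unadjusted p under 0.05 (15.6% beside 10.7% of all tested genes). The quasi-likelihood test, DESeq2 and UQ alone called 0 receptors, and 0, 4 and 0 of all 18008 genes. With UQ alone 0 receptors had an unadjusted p under 0.05, beside 0.678% of all tested genes. The smallest p was that of Htr5a (mm9 chr5:28168487-28181626), with counts of 293, 685, 642, 690 and 700.0 in FC3 to FC8 and 524, 776, 761, 651 and 743 in RT3 to RT8. FC3 was the lowest of both groups, followed by RT3. Its log2 fold change was -0.18 (SE 0.05, FDR = 0.0690), and -0.13 (SE 0.06, FDR = 0.256) without FC3 and RT3. Chrm3 was at -0.16 (SE 0.05, FDR = 0.142) and at 0.044 (FDR = 0.716) without these 2 libraries. Adrb1 was at -0.17 (SE 0.06, FDR = 0.196), and at -0.036 (FDR = 0.859) without FC3. For Htr4 (-0.0029, SE 0.07) and Chrm4 (-0.0090, SE 0.07) the 95% intervals reached from -0.14 to 0.13 and from -0.15 to 0.13. Without FC3 and RT3 0 receptors passed, beside a background of 0.347%.

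No receptor separated the groups without overlap of their UQ-normalized counts in any of the 3 comparisons, with or without FC3 and RT3. Over all tested genes, FC lay wholly above CC for 0.561% and wholly below for 0.400%, RT above CC for 0.900% and below for 0.455%, and FC above RT for 0.0555% and below for 0.172%. Without FC3 and RT3 these shares were 1.80% and 1.28%, 1.34% and 0.672%, and 1.53% and 2.06%.

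The promoters of 3 of the receptors nearest the threshold are shown because cAMP- and activity-responsive genes are known for short recognition letters close to their starts. Each line gives the 250 bases before a RefSeq transcription start (GRCm38.p6, a later build than the mm9 of the counts), 5′ to 3′, in lower case with matches to GGGCGG, the GC box, in capitals.
Chrm3, chr13:10360804-10361053, minus strand: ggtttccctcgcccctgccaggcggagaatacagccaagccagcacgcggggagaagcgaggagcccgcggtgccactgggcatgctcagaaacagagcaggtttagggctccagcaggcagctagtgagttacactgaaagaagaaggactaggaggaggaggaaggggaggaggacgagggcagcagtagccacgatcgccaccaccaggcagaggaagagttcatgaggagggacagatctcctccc
Chrm4, chr2:91921939-91922188, plus strand: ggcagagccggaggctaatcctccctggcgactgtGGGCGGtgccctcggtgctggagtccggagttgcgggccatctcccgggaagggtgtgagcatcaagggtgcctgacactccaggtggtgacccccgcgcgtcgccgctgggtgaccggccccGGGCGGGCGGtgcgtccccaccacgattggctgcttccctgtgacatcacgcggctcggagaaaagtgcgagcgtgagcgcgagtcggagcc
Drd1a, the upstream start, chr13:54055659-54055908, minus strand: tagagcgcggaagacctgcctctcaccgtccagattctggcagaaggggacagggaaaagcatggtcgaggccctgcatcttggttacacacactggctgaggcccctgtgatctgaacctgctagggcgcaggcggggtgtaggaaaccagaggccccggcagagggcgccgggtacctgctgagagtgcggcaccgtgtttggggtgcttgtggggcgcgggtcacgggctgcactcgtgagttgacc
Drd1a, the downstream start, chr13:54054781-54055030, minus strand: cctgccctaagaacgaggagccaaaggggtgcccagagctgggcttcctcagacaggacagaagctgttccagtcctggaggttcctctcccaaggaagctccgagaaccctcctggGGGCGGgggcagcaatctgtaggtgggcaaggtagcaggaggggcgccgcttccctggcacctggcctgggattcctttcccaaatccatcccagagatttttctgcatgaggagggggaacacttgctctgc
None of these 4 sequences held the CRE (TGACGTCA), its core TGACG, an AP-1 site (TGAGTCA), an Egr1 site (GCGTGGGCG) or a TATA box (TATAAA), on either strand. The GC box had 3 matches before Chrm4, of which a pair overlap, and 1 before the downstream Drd1a start. They had a GC content of 61.2% for Chrm3, 70.0% for Chrm4 and 64.0% and 60.8% for Drd1a.

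Over all members, 28 of 37 matched the RefSeq promoter table, with 36 starts. The CRE was in 0 of the 36, beside 1.55% of 32851 promoters in the table. Its core TGACG was in 3 (8.33% beside 17.8%), before Adra2a, Adrb1 and Htr7, and a match to the CRE contains this core. The AP-1 site was in 2 (5.56% beside 4.46%), before Adra1b and Hrh1, and the Egr1 site in 1 (2.78% beside 0.536%), before Htr7. The TATA box was in 1 (2.78% beside 12.4%), before Adra2a. The GC box was in 20 (55.6% beside 32.7%), before 17 of the 28 genes. No match says only that these letters are not in this window.

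Library 3 of FC differed from the other 4 FC libraries for many receptors, and that of RT did so to a smaller extent. By Dixon's test of a gap at the end of a group of 5, FC3 was past the 95% limit for 14 of 32 receptors beside 46.5% of all tested genes, and RT3 for 4 of 32 beside 18.2%. In CC, 3 of 32 receptors had a library past it, beside 5.45%. The receptors' shares were near the background in this respect. In FC3, 10 of 32 receptors (31.2%) were below 0.5 times the mean of the other 4 FC libraries, beside 16.6% of all tested genes. In RT3 these were 3 (9.38%) beside 4.36%, and in CC3 none of the receptors. The log2 deviation had the same sign in FC3 and RT3 for 28 of 32 receptors (87.5%), beside 86.7% of all tested genes. The receptors named in the next lines were chosen after their values were seen.

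Htr2a, the Gq-coupled serotonin receptor, was 59.4-fold lower in FC3, with a count of 4.05 beside 254 to 283 in the other FC libraries, and 3.59-fold lower in RT3. Chrm5 was 14.6-fold lower in FC3 and 3.38-fold in RT3, and Htr1b, an inhibitory autoreceptor, 11.01-fold and 2.31-fold lower. Chrm3 was 6.46-fold lower, Htr2c 5.57-fold, Htr4 3.24-fold, Chrm2 2.82-fold, Htr5a 2.32-fold, Htr1a 2.20-fold and Adra1a 2.07-fold lower in FC3. In the other direction, FC3 was the highest FC library for Hrh3, with a count of 3591 beside 1796 to 2279, and for Drd5, with 724 beside 490 to 535. Htr2a, Chrm5 and Htr1b had only 4, 6 and 2 reads in FC3, so that their ratios rest on few reads. The RT3 counts of Htr2a and Chrm5, 63.9 and 27.9, lay between those of FC3 and of the other RT libraries.

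**Figure D4:**
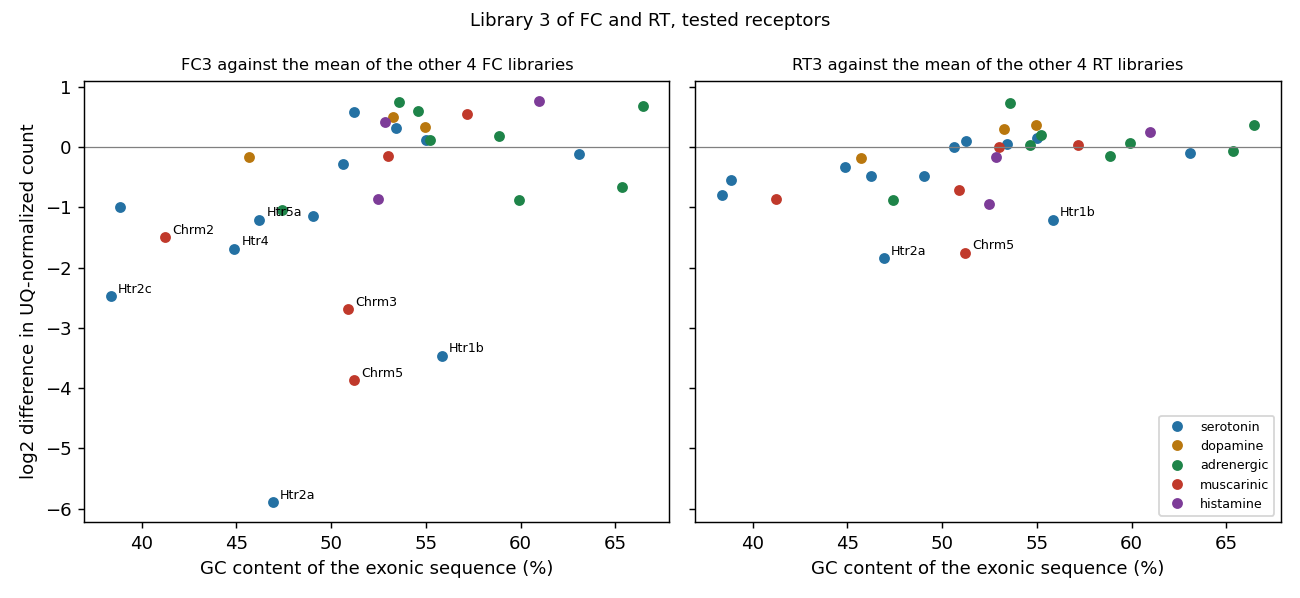
log2 difference of library 3 from the mean of the other 4 libraries of its group against the GC content of the exonic sequence (%), for FC (left) and RT (right). Each point is a tested receptor, coloured by family, and receptors below -1.2 are named. The 4 receptors under 45% GC are all below 0 in FC3, and Htr2a at 46.9% GC lies lowest, at -5.89.

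The deviation of FC3 varied with the GC content of the transcripts and, over all genes, with their length. The 4 receptors below 45% GC had a median log2 deviation of -1.60 in FC3 beside -0.57 for all 4199 genes of that class, and the 6 receptors from 45% to 50% had -1.09 beside -0.17. The 13 receptors from 50% to 55% had 0.31 beside 0.18, and the 9 of 55% and above 0.12 beside 0.47. Over the 32 receptors, Spearman's rho of the FC3 deviation with GC content was 0.50, and 0.39 over all 18008 tested genes (a description across genes of the same libraries). With exonic length it was -0.014 over the receptors and -0.42 over all tested genes. Chrm3 (50.9% GC), Chrm5 (51.2%) and Htr1b (55.9%) fell far below other receptors of their GC class. Their models are single exons with 182, 150 and 115 noncoding bases, beside 215 to 7883 noncoding bases for the other tested receptors. A single exon was not particular to them. Other receptors with such a model included Adra2a, Adra2b, Adra2c and Drd5, with log2 deviations of 0.18, 0.75, 0.68 and 0.49 in FC3. Adrb1 and Htr1a, also of 1 exon, were at -0.89 and -1.14. Whether base composition or the shape of the model had a part in these deviations was not tested.

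The genes that make, transport and remove the transmitters formed the first of 4 lists. Of 25 listed genes 19 were tested, and 2 passed in FC against CC, both higher, beside a background of 1.32% called higher; 0 passed in RT against CC or in FC against RT. Th, tyrosine hydroxylase, which makes L-DOPA, had UQ-normalized counts of 40.7, 39.7, 54.0, 32.3 and 18.002 in CC3 to CC8. The counts were 82.1, 52.8, 56.8, 41.5 and 58.1 in FC3 to FC8 and 78.3, 49.1, 39.9, 59.2 and 32.6 in RT3 to RT8. FC3 and RT3 were the highest libraries, and the groups overlapped. The log2 fold change of FC against CC was 0.62 (SE 0.15, FDR = 0.00293), and 0.67 (FDR = 0.00137) without FC3 and RT3. The call was lost without CC5 (FDR = 0.0141), CC7 (FDR = 0.0101), CC8 (0.38, FDR = 0.114), FC6 (FDR = 0.0154) or FC8 (FDR = 0.0781).

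Gch1, GTP cyclohydrolase, which makes the cofactor of that enzyme, had counts of 81.4, 72.1, 79.8, 74.3 and 107 in CC3 to CC8. The counts were 166, 137, 94.3, 101 and 103 in FC3 to FC8 and 120, 92.3, 91.5, 102 and 93.6 in RT3 to RT8. All FC libraries were above 4 of the 5 CC libraries, and CC8 lay among them. The log2 fold change was 0.44 (SE 0.11, FDR = 0.00261), and 0.42 (FDR = 0.00613) without FC3 and RT3. The call was lost without CC5 (FDR = 0.0178), CC6 (FDR = 0.0101) or FC5 (0.30, FDR = 0.178). Neither gene passed without FC5 and FC8, the libraries with the highest choroid plexus markers (FDR = 0.141 for Th and 0.277 for Gch1), with UQ alone (FDR = 0.966 and 0.622), or with DESeq2 (FDR = 0.202 and 0.166).

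Levels of these genes in CC were 0.306 ± 0.11 FPKM for Th and 0.584 ± 0.098 for Gch1, beside 14.3 FPKM for Ache and 9.83 for Hnmt, the enzymes that inactivate acetylcholine and histamine. Chat, the enzyme that makes acetylcholine, had 0 to 6 reads per library, Slc6a2, the noradrenaline transporter, 0 to 6, and Slc6a4, the serotonin transporter, 0 to 33.

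The signalling genes downstream of the receptors gave no call over all 15 libraries with the study's model or with UQ alone. None of 25 G protein subunit genes, 23 genes of receptor desensitization (receptor kinases, arrestins and RGS proteins) or 31 tested second-messenger effectors passed there in any comparison. The effectors included phospholipases, protein kinases A and C and their target channels. Some passed in other runs. Gng4, a G protein gamma subunit, and Prkar1b, a regulatory subunit of protein kinase A, were lower in FC than in CC without FC3 and RT3. Gng4 also passed with the replicate block and without CC8, FC3, FC8 or RT3, and Kcnq3 without CC5, without FC5, or without FC5 and FC8 together. Gnao1 passed in FC against CC with every gene with a read, Rgs7 without CC3, Ppp1r1b without FC6 and Prkar2b without CC8. In RT against CC, Prkar2b and Rgs17 were lower without CC8. The median log2 fold changes of these lists in FC against CC were 0.00061, -0.026 and -0.026, beside -0.014 for all tested genes. Nearest the threshold in FC against CC were Gnao1, the Go subunit, at -0.091 (FDR = 0.0172), and Kcnq3, the M-channel subunit that muscarinic receptors close, at 0.20 (FDR = 0.0252). These genes were singled out after their values were seen.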

How the data were processed

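The counts were used as deposited. Per the labels, RNA of the hippocampus was polyA-selected (TruSeq) and 3 libraries were run per lane. Per the study's methods a lane held a library from each of CC, FC and RT. The main model had no term for the lane. Per the submitters' processing notes the authors used GSNAP, mm9 and HTSeq 0.6.1 to make the deposited read counts per Ensembl gene, which no normalization has changed. How strand was treated in counting is not given in the sources used here. No other column was used.

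The test took the 18008 of 37310 genes whose count was above 10 in more than 5 libraries. The model was the study's: edgeR (4.0.16, R 4.3.3) likelihood ratio test with upper-quartile factors and tagwise dispersion over all 15 libraries, with group and 5 RUVs factors, rebuilt from the method, computed on the study's negative control genes, which it took from separate microarray data of the same 3 conditions. The threshold was an FDR of 0.01, and UQ alone is given beside it. Each SE is the absolute log2 fold change over the root of its likelihood ratio statistic. It leaves out the error of the estimated factors. FPKM used the union exon length of the mm9 annotation, which matched all gene identifiers. Library 3 was compared after adding 0.5 to the UQ-normalized counts. The procedure was tested on simulated data. DESeq2 (1.42.0) was an alternative.

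The members and gene lists were chosen with earlier results of these data known. The values of some genes are not reported here and they are not drawn, but they count in the totals. Library values are given for those past the threshold, the highest of each family and the 3 with the smallest p in each comparison. Each group has 5 libraries. The study's methods give 1 mouse per library and a separate experiment for each of a group's animals. The submitters' design text gives more animals per group, and this difference was not resolved. All 30 pairs of libraries within groups differed by more than sampling noise. Libraries with the same number in FC and RT deviated together (correlation of deviations from the group means 0.251 to 0.864, beside a median of 0.139 for other numbers), but not in CC and FC (-0.31 to 0.24) or CC and RT (-0.32 to 0.094). Between other numbers of FC and RT the highest correlation was 0.506, above the lowest of the same number. The numbers may therefore pair FC with RT, but this is not certain.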

Additional observations from a re-analysis of the deposited data

Results flagged for a closer look

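In a group of 5 libraries, a receptor was marked when the gap between its highest or lowest library and the nearest other was larger, relative to the whole range, than Dixon's 95% limit allows. Chance marks about 1 in 20 groups. The values are UQ-normalized counts. Of the 32 tested receptors, 3 were marked in CC, 14 in FC and 4 in RT. In FC the library was FC3 in all 14, beside 46.5% of all tested genes with FC3 past the limit, and in RT it was RT3 in all 4, beside 18.2%.

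In CC, Adra2a was highest in CC5, at 955. Htr7 was lowest in CC7, at 534, and Hrh1 was lowest in CC8, at 52.9.

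FC3 was the lowest FC library for 10 receptors. The counts there were 99.3 for Adra1a, 1790 for Adra1d, 119 for Chrm2, 252 for Chrm3, 866 for Htr1a, 2.03 for Htr1b, 4.05 for Htr2a, 375 for Htr2c, 227 for Htr4 and 293 for Htr5a. It was the highest FC library for Adra2c, at 2575, for Drd5, at 724, and for Hrh3, at 3591.

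RT3 was the lowest RT library for Chrm3, at 968, for Htr2a, at 63.9, and for Htr2c, at 1073. It was the highest for Adra2c, at 2219. These 4 receptors were also past the limit in FC3, in the same direction.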

How the results depend on the processing

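With 5 RUVs factors 1 receptor passed in FC against CC, 0 in RT against CC and 0 in FC against RT, and 2, 0 and 0 of the pathway genes. In FC against RT the receptor count was 0 in every alternative run. In FC against CC 0 receptors and 0 pathway genes passed with UQ alone, with 3 factors, with 1 factor, with the quasi-likelihood test, with UQ alone without FC3 and RT3 (added after seeing the data), and with the replicate block on UQ alone. With the replicate block on 5 factors, 3 receptors passed in FC against CC and 1 in RT against CC. An FDR of 0.05 gave 4 receptors and 5 pathway genes in FC against CC, and 2 and 1 in RT against CC. Without FC3 and RT3, 2 receptors and 4 pathway genes passed in FC against CC and 1 receptor in RT against CC. Without FC5 and FC8, 2 receptors passed in RT against CC and 1 pathway gene in FC against CC, beside 207 and 219 of 17882 genes. The receptor count of FC against CC stayed at 1 there and with every gene with a read tested, but the receptor was Hrh1 and Drd1a, not Chrm3. The latter fit called 269 of 28657 genes. In FC against CC, all tested genes as negative controls gave 1 receptor and 1 pathway gene, beside 309 of 18008 genes. DESeq2 called 0 pathway genes there, beside 155 of 18008 genes. With every gene with a read tested, 1 pathway gene passed in FC against RT. Leaving out each library in turn gave 0 (without FC8) to 4 (without RT3) receptors in FC against CC, beside 384 of 17922 and 473 of 17929 genes. Pathway genes numbered 1 (without CC5) to 5 (without CC8), beside 312 of 17899 and 653 of 17971 genes. The fit of all libraries called 403 of 18008 genes. In RT against CC there were 0 to 1 receptors and 0 to 2 pathway genes. The 2 came without CC8, beside 276 of 17971 genes. In FC against RT there were 0 of either. The log2 fold change of Chrm3 in FC against RT turned to 0.015 without FC3 (range over single libraries left out -0.20 to 0.015) and to 0.044 without FC3 and RT3 (0.038 with UQ alone). That of Htr2c in FC against CC turned to -0.049 with UQ alone, -0.22 with the replicate block on UQ alone, -0.14 without FC5 and FC8, -0.012 without CC8 and -0.035 without FC8 (range over single libraries left out -0.035 to 0.13). The cause of these changes was not tested. The levels of Chrm1, Adra1d, Htr1a, Hrh3 and Drd5, the highest of each family, moved by less than the SD of CC. This compared the CC mean with the median over all 15 libraries and the mean without FC3 and RT3. Chrm4 moved further, from 7.82 ± 0.96 FPKM in CC to a median of 9.18 over all 15 libraries. Adra2b and Htr1d had too few reads to exclude a 1.5-fold change.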
